A study of Homo sapiens with 4 samples.

Results

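Glucose metabolism was followed in Kasumi-1 cells, a human acute myeloid leukemia (AML) line, through a hand-written list of 38 genes covering glycolysis, glucose and lactate transport, the pentose phosphate pathway, glycogen and pyruvate entry into mitochondria. Members were taken from the deposited table by gene identifier wherever they reached at least 1 TPM (a level scaled to transcript length and to the total of the sample) in at least 2 of the 4 samples. Of the 38 genes, 37 were found among the 18567 gene identifiers of the table and all 37 passed that filter, while PFKFB2 was not analysed here. RNA was sequenced from 2 samples of the group called NC and 2 samples of the group called sh-ANP32B. The sh-ANP32B group carried short hairpin RNA against ANP32B, a histone-binding acidic nuclear phosphoprotein, and its labels do not name which of the 3 hairpins of the study was used. The labels list no hairpin for NC, whereas a lentiviral control hairpin and puromycin selection are given in the study's methods, so the NC cells may or may not have been infected and selected. The labels name no treatment beyond the knockdown, and all 4 samples come from a single cell line. The study says in general that experiments were repeated independently at least 3 times, yet each group here has 2 samples. Whether these 2 were separate cultures is not stated, so the p-values below measure only the spread between these samples.

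Glycolysis splits glucose into pyruvate in a chain of cytosolic enzymes, and lactate dehydrogenase turns pyruvate into lactate, which leaves the cell through monocarboxylate transporters. Hexokinases trap glucose in the cell as glucose 6-phosphate, the branch point from which carbon can go on through glycolysis, into the pentose phosphate pathway for NADPH and ribose, or into glycogen. HK1 is the broadly expressed hexokinase, HK2 is the form often high in proliferating and tumor cells, and HK3 is best known from maturing myeloid cells.

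Knockdown was checked first. ANP32B lay at 383.8 and 392 TPM in the NC samples and at 51.8 and 41.2 TPM in the sh-ANP32B samples (log2 fold change -3.04, SE 0.150, adjusted p = 0.00516 in limma). All fold changes here compare sh-ANP32B with NC after log2(TPM + 1), where changes of low genes come out too small, and adjusted p-values come from limma across 16817 genes. The deposited values hold no sequencing depth, so no counting error could be attached to any level. Mitochondrially encoded transcripts took 12.9% and 13.1% of the TPM in NC against 11.4% and 8.43% in sh-ANP32B. The sh-ANP32B replicates differed from each other along GC content, with a Spearman rho of 0.577 across 15427 genes. Of 10 listed myeloid blast markers 8 were in the table, with CD33 between 58.5 and 70.1 TPM and SPI1 between 241 and 364 TPM across the 4 samples, although KIT, which is known to be high in this line, lay only between 1.55 and 3.41 TPM.

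Glucose uptake and trapping held every member that passed the test. HK3, HK2 and the glucose transporter SLC2A3 were higher in sh-ANP32B with a limma adjusted p under 0.05, and no member was lower at that threshold. These 3 of 37 members, or 8.11%, compare with 3.32% of all genes tested called in either direction, 2.14% as higher and 1.18% as lower. Where every sample had to reach 1 TPM, 3 of 36 members (8.33%) compare with 5.61% of 14476 genes. At an unadjusted p under 0.05 there were 7 members higher and 3 lower, against 15% and 8.72% of all genes (23.8% together). The list was chosen with earlier results of these data known, so these shares describe it and are no test of it. On the TPM scale the means of HK3, SLC2A3 and HK2 rose 5.99-fold, 2.32-fold and 2.14-fold. The 15 enzymes from glucose phosphate isomerase to lactate dehydrogenase, which carry most of the pathway's RNA, gave 0 calls in limma and 2 at an unadjusted p under 0.05, and their log2 fold changes stayed between -0.50 and 0.61. Without the abundance trend in limma, 0 members were called, against 7 at an unadjusted p under 0.05, and the adjusted p was 0.0929 for HK3 and 0.114 for HK2 and SLC2A3.

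HK3 (ENSG00000160883) sits on the minus strand of chromosome 5 between positions 176880869 and 176899346 (hg38). NC replicates 1 and 2 held 6.10 and 5.17 TPM of it, and sh-ANP32B replicates 1 and 2 held 28.2 and 39.3 TPM. The groups did not overlap, and the lower sh-ANP32B sample stood well above both NC samples. Means of 5.63 ± 0.657 and 33.8 ± 7.80 TPM (SD, n = 2 each) gave a log2 fold change of 2.38 (SE 0.221, adjusted p = 0.0241 in limma), the sixth largest increase among all genes tested. UNC5A overlaps HK3 on the opposite strand, and whether the authors counted by strand is not stated. UNC5A had between 4.96 and 7.96 TPM, with no higher level in sh-ANP32B.

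HK2 (ENSG00000159399) sits on the plus strand of chromosome 2 between positions 74834127 and 74893359. It had 236 and 241 TPM in the NC samples and 501 and 519.7 TPM in the sh-ANP32B samples. Replicates lay close together in both groups, and the groups were far apart. Group means of 238 ± 3.10 and 510.4 ± 13.2 TPM (SD, n = 2 each) were obtained, and the log2 fold change was 1.09 (SE 0.117, adjusted p = 0.0258 in limma). HK2 was the most abundant hexokinase of the 3 in every sample. As bulk RNA was measured, more RNA per cell and a larger share of cells with that RNA cannot be told apart for any gene here.

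HK1 (ENSG00000156515), on the plus strand of chromosome 10 (69269984 to 69401884), gave 96.5 and 89.3 TPM in NC against 93.5 and 119 TPM in sh-ANP32B. Its groups overlapped, since sh-ANP32B replicate 1 fell between the NC samples. The log2 fold change was 0.18 (SE 0.159, adjusted p = 0.537 in limma). Of 16 alternative settings, HK1 passed the test in 1, with sh-ANP32B replicate 1 left out (0.35, adjusted p = 0.0339 in limma).

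Set side by side, the 3 isoforms summed to 339 and 335 TPM in NC and to 623 and 678 TPM in sh-ANP32B, a 1.93-fold rise of the mean. In absolute terms most of that rise was HK2, which went up by more TPM than HK3 reached. The share of HK2 in the sum was 69.7% and 71.8% in NC and 80.4% and 76.7% in sh-ANP32B. HK1 made up 28.5% and 26.6% in NC and 15.0% and 17.5% in sh-ANP32B. HK3 contributed 1.80% and 1.54% in NC against 4.53% and 5.79% in sh-ANP32B, a mean share 3.49 percentage points higher. HK3 remained the smallest component throughout. None of the 3 shares overlapped between the groups, but they are parts of the same sum, so the HK1 share could fall without less HK1 RNA. Shares that hardly moved did not overlap either, such as PFKFB3 of PFKFB3 + PFKFB4 (10.95% and 10.98% in NC, 11.15% and 11.81% in sh-ANP32B). The ratio of HK2 to HK1 TPM was 2.45 and 2.70 in NC and 5.36 and 4.37 in sh-ANP32B. With 2 samples on each side the smallest p of an exact permutation test is 0.33, so the shares carry no test.

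**Figure D1:**
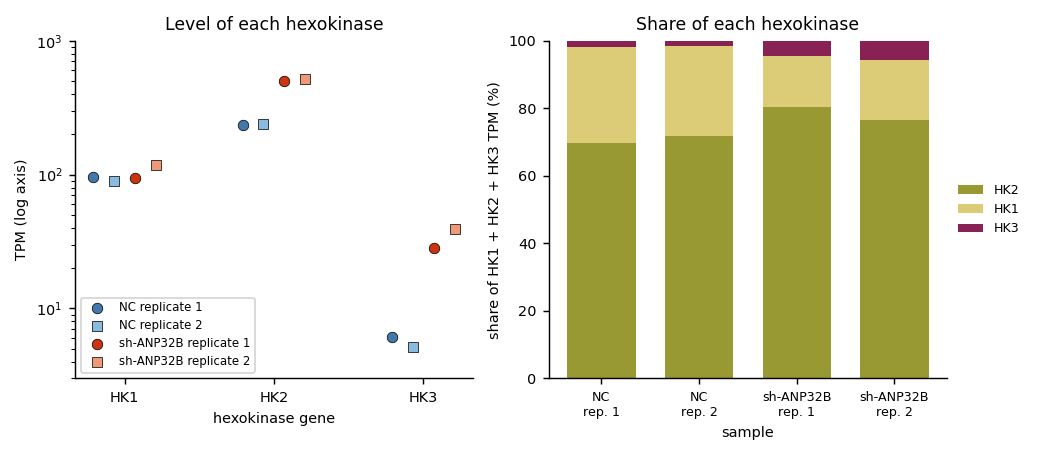
Left, TPM of HK1, HK2 and HK3 on a log axis in each of the 2 NC and 2 sh-ANP32B samples, 1 point per sample; right, stacked bars of each isoform as a percent of the summed TPM in each sample. HK2 moved from 236 and 241 to 501 and 519.7 TPM and HK3 from 6.10 and 5.17 to 28.2 and 39.3 TPM, while the HK1 samples overlapped.

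The start regions of the called hexokinase genes are shown because both genes rose from very different levels. Each run holds the 250 bases before the RefSeq start (GRCh38.p14, which is hg38), 5′ to 3′ on the strand of the gene, and each was identical to the hg38 sequence. HK3 covers chr5:176899347-176899596 on the minus strand and HK2 covers chr2:74833877-74834126 on the plus strand. Capitals mark a match to ACGTG, the core of the hypoxia response element, which reads CACGT where it lies on the other strand.
HK3: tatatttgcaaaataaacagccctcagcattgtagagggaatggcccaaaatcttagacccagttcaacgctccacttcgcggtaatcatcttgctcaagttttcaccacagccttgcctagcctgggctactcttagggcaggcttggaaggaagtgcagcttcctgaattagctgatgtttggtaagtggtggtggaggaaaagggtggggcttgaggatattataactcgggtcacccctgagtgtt
HK2: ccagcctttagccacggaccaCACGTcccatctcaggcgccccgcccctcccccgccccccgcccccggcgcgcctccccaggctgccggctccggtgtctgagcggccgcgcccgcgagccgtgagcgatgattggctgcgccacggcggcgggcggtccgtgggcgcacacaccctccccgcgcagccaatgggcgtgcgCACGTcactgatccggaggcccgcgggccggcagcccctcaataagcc

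The HK2 stretch was 76.8% GC and held 2 matches to ACGTG, whereas the HK3 stretch was 48.4% GC and held none of the motifs searched. The motifs, each looked for on both strands in windows of 250 bases before to 50 bases after the start, were the E-box CACGTG (bound by MYC and its partners), ACGTG (contained in CACGTG), GAGGAAGT (an ETS site of the PU.1 type) and TTGCNNCAA (a C/EBP site). Windows were found for 35 of the 37 members, and not for SLC2A3 and SLC16A1. A gene counted if any of its windows matched, and the number of windows differed, from 1 for HK3 to 7 for HK1. The shares below are not adjusted for that number. CACGTG occurred in 7 of the 35 (20%), namely ALDOA, ALDOC, GAPDH, HK2, LDHA, PFKFB3 and PGM2. Among the 9959 tested genes with a window the share was 13.0%, and among all 27305 genes with a window it was 8.77%. For HK2 the E-box lay in a second window, starting at 74834920, with 2 matches. ACGTG was found in 16 members (45.7%) against 32.8% of the tested genes with a window. GAGGAAGT was found in 3 members (8.57% against 3.87%) and TTGCNNCAA in 1 (2.86% against 1.91%). A match describes the letters of a window and not a bound site, and the absence of a match covers only these letters in these windows.

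Glucose enters the cell through facilitative transporters, of which SLC2A1 (GLUT1) and SLC2A3 (GLUT3) were members. SLC2A3 (ENSG00000059804), on the minus strand of chromosome 12 (7919230 to 8019007), had 66.4 and 61.1 TPM in NC against 154 and 142 TPM in sh-ANP32B. Both sh-ANP32B samples were more than double either NC sample. The log2 fold change was 1.20 (SE 0.133, adjusted p = 0.0258 in limma). SLC2A3 has a near-identical neighbor, SLC2A14, with which it can share reads, so its value is uncertain to that extent, and SLC2A14 itself lay between 0.849 and 2.05 TPM. SLC2A1, the broadly expressed transporter, had 81.6 and 85.0 TPM in NC against 92.7 and 105 TPM in sh-ANP32B. Its groups did not overlap but the log2 fold change of 0.24 did not pass the test (adjusted p = 0.335 in limma). SLC2A3 made up 44.9% and 41.8% of the summed transporter TPM in NC, where SLC2A1 was the more abundant. In sh-ANP32B the share of SLC2A3 was 62.4% and 57.5%, and the order of the pair was turned around in both samples.

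Neither lactate transporter passed the test. SLC16A1 (MCT1), which carries lactate and pyruvate in either direction, had 61.6 and 64.6 TPM in NC against 44.04 and 35.0 TPM in sh-ANP32B. Its log2 fold change of -0.67 (SE 0.163, adjusted p = 0.0736 in limma) was the most negative of all members, and its groups did not overlap. SLC16A1 was called in 3 of the 12 alternatives that keep all 4 samples, those with GC correction or the replicate block. With GC correction, where 13.5% of all genes were called, it stood at -0.70 (adjusted p = 0.0141 in limma). Leaving out 1 sample gave between -0.83 and -0.51. SLC16A3 (MCT4), known for lactate export from strongly glycolytic cells, had 277 and 205 TPM in NC against 310.5 and 644 TPM in sh-ANP32B. Its groups did not overlap either, but the sh-ANP32B replicates lay further apart than the groups did at their nearest samples. The log2 fold change was 0.91 (SE 0.331, adjusted p = 0.167 in limma), and it was 0.38 without sh-ANP32B replicate 2 and 1.43 without sh-ANP32B replicate 1. Without NC replicate 1 its log2 fold change was 1.12, and without NC replicate 2 it was 0.69. SLC16A3 was called in 1 of the 12 alternatives that keep all 4 samples, the replicate block, where its SE was 0.208. That fit took the variance of each gene from the abundance trend alone, so the spread of SLC16A3 itself did not enter. The transcript of SLC16A3 has a GC content of 62.7%, among the highest of the members. SLC16A3 made up 81.8% and 76.0% of the pair in NC and 87.6% and 94.8% in sh-ANP32B.

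Phosphofructokinase-1 commits fructose 6-phosphate to glycolysis, and the PFKFB enzymes set the level of fructose 2,6-bisphosphate, its strongest activator. PFKFB4 had 287 and 289.8 TPM in NC against 386 and 434 TPM in sh-ANP32B (log2 fold change 0.50, SE 0.125, adjusted p = 0.0768 in limma). PFKFB3, the form with the highest kinase activity, had 35.3 and 35.8 TPM in NC against 48.4 and 58.1 TPM in sh-ANP32B (0.56, SE 0.155, adjusted p = 0.0958 in limma). Neither pair of groups overlapped, and neither gene passed the test. Of the 12 alternatives that keep all 4 samples, each gene passed in 1, GC correction, where 13.5% of all genes were called. Leaving out 1 sample gave log2 fold changes between 0.42 and 0.59 for PFKFB4 and between 0.43 and 0.69 for PFKFB3. Their sum stood at 323 and 326 TPM in NC and at 434 and 492 TPM in sh-ANP32B. The proportion of the pair barely shifted, PFKFB4 taking 89.0% in both NC samples and 88.8% and 88.2% in sh-ANP32B.

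Among the phosphofructokinase-1 subunits, PFKL (liver type) and PFKP (platelet type) carried nearly all the RNA and PFKM (muscle type) lay between 2.16 and 2.76 TPM. PFKP had 182 and 165 TPM in NC against 199.9 and 248 TPM in sh-ANP32B, whereas PFKL had 279.7 and 229 TPM in NC against 207 and 293 TPM in sh-ANP32B. The log2 fold changes were 0.36 and -0.04 (adjusted p = 0.211 and 0.928 in limma). That of PFKL turned positive when NC replicate 1 or sh-ANP32B replicate 1 was left out (0.10 and 0.21). The share of PFKP in the 3 subunits was 39.3% and 41.5% in NC and 48.9% and 45.7% in sh-ANP32B.

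No enzyme of the hexose phosphate and triose steps was called. GPI, which interconverts glucose and fructose 6-phosphate, had 1065 and 1010 TPM in NC against 1217 and 1289 TPM in sh-ANP32B (0.27, adjusted p = 0.232 in limma). ALDOA, the main aldolase, had 3183 and 3054 TPM in NC against 3500 and 4436 TPM in sh-ANP32B (0.34, adjusted p = 0.248 in limma). ALDOC, the minor aldolase of these cells, had 2.28 and 3.01 TPM in NC against 2.95 and 6.70 TPM in sh-ANP32B, so its groups overlapped and its log2 fold change of 0.61 (SE 0.369, adjusted p = 0.372 in limma) rested on sh-ANP32B replicate 2. Without that replicate it was 0.13. TPI1 and GAPDH, the next enzymes, had log2 fold changes of 0.28 and 0.24 with groups that did not overlap, and 0.07 and 0.13 without sh-ANP32B replicate 2.

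Lower glycolysis was split between members above and below 0. PGAM1, the phosphoglycerate mutase, had 733 and 742 TPM in NC against 529 and 517 TPM in sh-ANP32B. Replicates agreed closely on both sides, and the log2 fold change of -0.50 (SE 0.116, adjusted p = 0.0692 in limma) missed the threshold. PGAM1 was called in 2 of the 12 alternatives that keep all 4 samples, both with GC correction. In the fit with GC correction alone, where 13.5% of all genes were called, it stood at -0.58 (adjusted p = 0.0160 in limma). Leaving out 1 sample gave between -0.51 and -0.48. PGK1 and ENO1, its neighbors in the chain, had log2 fold changes of -0.14 and -0.21 with both sh-ANP32B samples below both NC samples. ENO1 was the most abundant member in the NC samples, with 5886 and 5667 TPM, and had 4744 and 5226 TPM in sh-ANP32B (adjusted p = 0.385 in limma). PKM, the pyruvate kinase, pointed the other way with 1994 and 1973 TPM in NC against 2233 and 2475 TPM in sh-ANP32B (0.25, adjusted p = 0.295 in limma). ENO2, the neuronal enolase, was under 1 TPM in both NC samples and entered the test only through its sh-ANP32B values of 1.15 and 1.49 TPM, so its higher level is no evidence of a change.

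Lactate dehydrogenase is built from LDHA and LDHB subunits, the first associated with making lactate and the second with using it. LDHB had 882 and 866 TPM in NC against 692 and 640.3 TPM in sh-ANP32B (log2 fold change -0.39, SE 0.120, adjusted p = 0.117 in limma). It was called in 1 of the 12 alternatives that keep all 4 samples, GC correction, where 13.5% of all genes were called. Leaving out 1 sample gave between -0.45 and -0.34. LDHA had 1564 and 1516 TPM in NC against 1812 and 1349 TPM in sh-ANP32B. Its sh-ANP32B replicates lay on opposite sides of NC, and its log2 fold change of 0.02 (adjusted p = 0.957 in limma) was -0.07 after median-of-ratios scaling and also negative with upper-quartile scaling, GC correction or without the mitochondrial genes. Leaving out sh-ANP32B replicate 1 gave -0.19 and leaving out replicate 2 gave 0.24. The share of LDHA in the pair was 63.9% and 63.7% in NC and 72.4% and 67.8% in sh-ANP32B, while LDHB itself was lower in both sh-ANP32B samples.

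**Figure D2:**
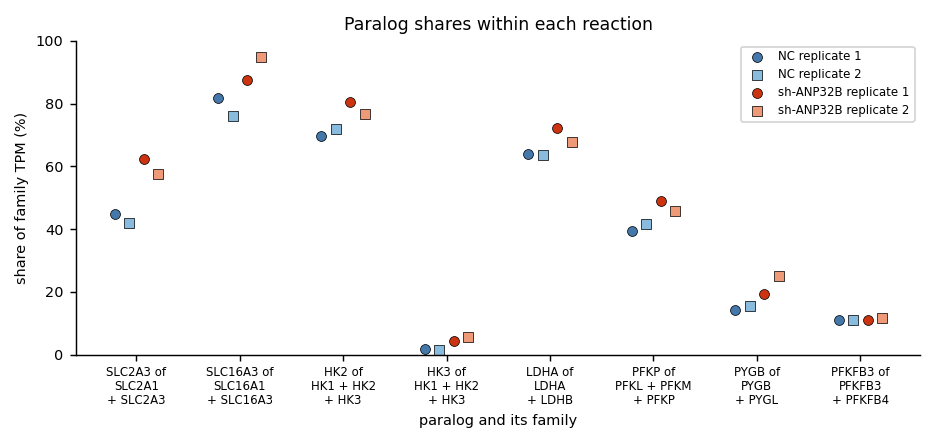
Share of 1 paralog in the summed TPM of its family, in percent, for 8 paralogs in each of the 4 samples, 1 point per sample. SLC2A3 crossed from under to over 50% of the glucose transporter pair, while the PFKFB3 share stayed between 10.95% and 11.8% in all samples.

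In the oxidative branch of the pentose phosphate pathway, which yields NADPH, PGD had 322 and 312 TPM in NC against 371 and 395 TPM in sh-ANP32B (0.27, adjusted p = 0.226 in limma). PGLS, the lactonase before it, overlapped between groups with a range of 125 to 161 TPM in NC against 153 to 217 TPM in sh-ANP32B. The non-oxidative branch, which links ribose 5-phosphate to glycolysis, held members on both sides of 0. TKT (transketolase) had 730.4 and 776 TPM in NC against 861 and 1229 TPM in sh-ANP32B (0.45, SE 0.184, adjusted p = 0.203 in limma), and 0.19 without sh-ANP32B replicate 2. TALDO1 (transaldolase) had 409 and 415 TPM in NC against 357 and 369 TPM in sh-ANP32B (-0.18, adjusted p = 0.390 in limma). RPIA, which makes ribose 5-phosphate, had 48.6 and 50.8 TPM in NC against 42.3 and 36.8 TPM in sh-ANP32B (-0.32, SE 0.148, adjusted p = 0.245 in limma). RPE, the epimerase, overlapped between groups, with 42.2 and 56.9 TPM in NC against 42.6 and 36.5 TPM in sh-ANP32B (-0.31, SE 0.189, adjusted p = 0.376 in limma). None of these 6 genes was called, and 1 of them, TKT, had an unadjusted p under 0.05.

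Of the glycogen genes, PYGL, the liver type phosphorylase that releases glucose 1-phosphate, had 171 and 162 TPM in NC against 143 and 137 TPM in sh-ANP32B (-0.25, SE 0.123, adjusted p = 0.277 in limma). PYGB, the brain type, had 28.6 and 29.9 TPM in NC against 34.3 and 45.8 TPM in sh-ANP32B (0.43, adjusted p = 0.220 in limma). The share of PYGB in the pair was 14.3% and 15.6% in NC and 19.3% and 25.1% in sh-ANP32B. GYS1 (glycogen synthase), PGM1 and PGM2 (phosphoglucomutases) had log2 fold changes between -0.15 and 0.13, and GYS1 turned positive without NC replicate 2 or without sh-ANP32B replicate 1. MPC1 and MPC2 together form the mitochondrial pyruvate carrier. MPC2 had 48.7 and 43.7 TPM in NC against 53.5 and 73.9 TPM in sh-ANP32B (0.44, adjusted p = 0.220 in limma), while the MPC1 groups overlapped, with a log2 fold change of 0.01 that was negative after median-of-ratios, upper-quartile and quantile scaling, with GC correction, without the mitochondrial genes, and without NC replicate 1 or sh-ANP32B replicate 1.

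**Figure D3:**
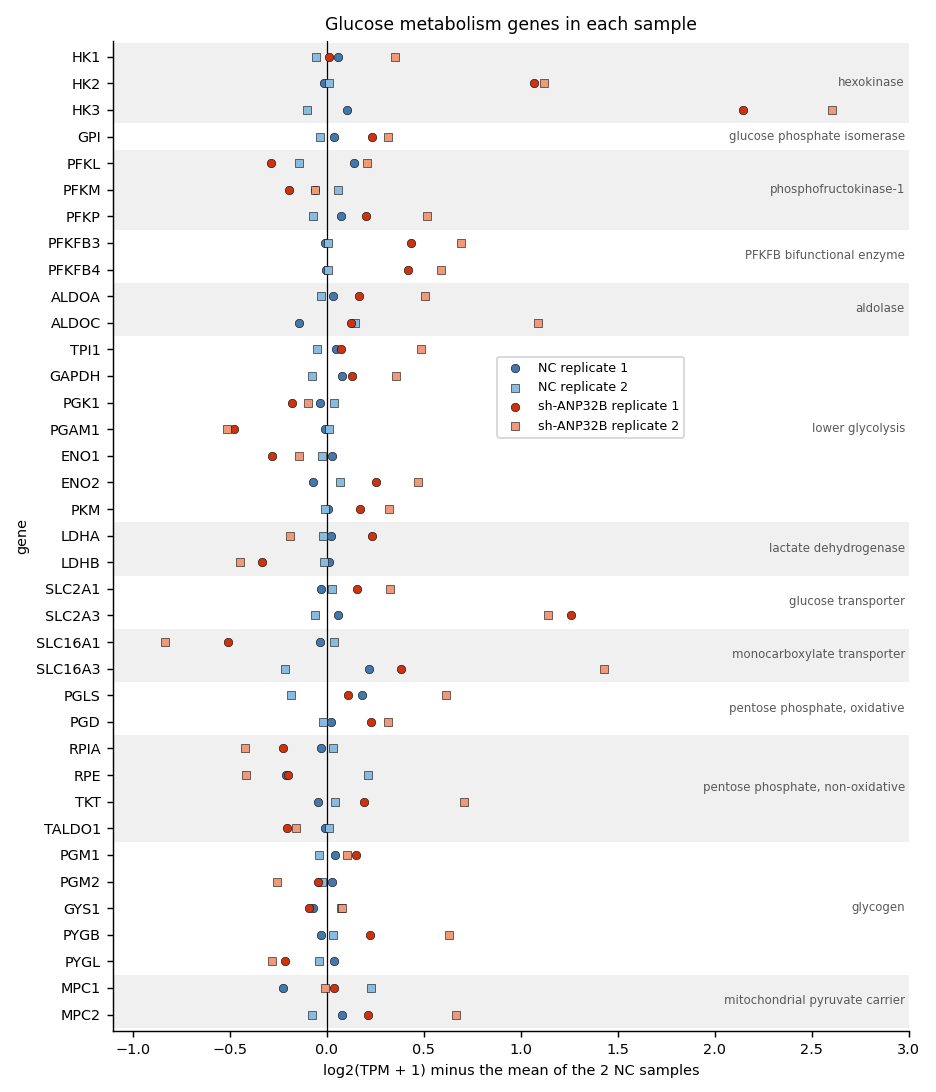
Each row is 1 of the 37 genes and each point 1 sample, placed at its log2(TPM + 1) minus the mean of the NC samples; shading separates the roles. HK3, HK2 and SLC2A3 lay more than 1 log2 unit above NC in both sh-ANP32B samples, and in 26 of the 37 genes sh-ANP32B replicate 2 lay above replicate 1.

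Seen as a whole, the pathway shifted little in bulk. The members summed to 2.53% and 2.42% of all TPM in NC and to 2.55% and 2.89% in sh-ANP32B. Outside the mitochondrial genes the same sums were 2.91% and 2.79% against 2.88% and 3.15%, so the groups overlapped. The median log2 fold change of the 37 members was 0.24, beside 0.08 for all genes tested, with 24 members above and 13 below 0. Without sh-ANP32B replicate 2 the medians were 0.13 and 0.10, and with GC correction they were 0.15 and 0.01. Samples of the 2 groups did not overlap in 28 of the 37 members (19 higher and 9 lower), or 75.7%, where the background over all genes was 54.6% (33.2% higher and 21.4% lower). Setting aside ENO2, which was under 1 TPM in both NC samples, 18 of 36 were higher and 9 lower. These shares, too, describe a list chosen with earlier results known and are no test of it. The study set p under 0.05 and an absolute log2 fold change over 0.5 in DESeq2, without stating whether p was adjusted. Applied here to the unadjusted limma p, that criterion was passed by 7 members, or 18.9%, against 18.6% of all genes. These were HK2, HK3, PFKFB3, PFKFB4, SLC2A3 and SLC16A3 as higher, against 12.1% of all genes, and SLC16A1 as lower, against 6.55%. After median-of-ratios scaling 5 members passed it, HK2, HK3 and SLC2A3 as higher and SLC16A1 and PGAM1 as lower, of which PGAM1 was not among the 7. That scaling split the adjusted calls over all genes into 230 higher and 288 lower, instead of 360 and 199.

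**Figure D4:**
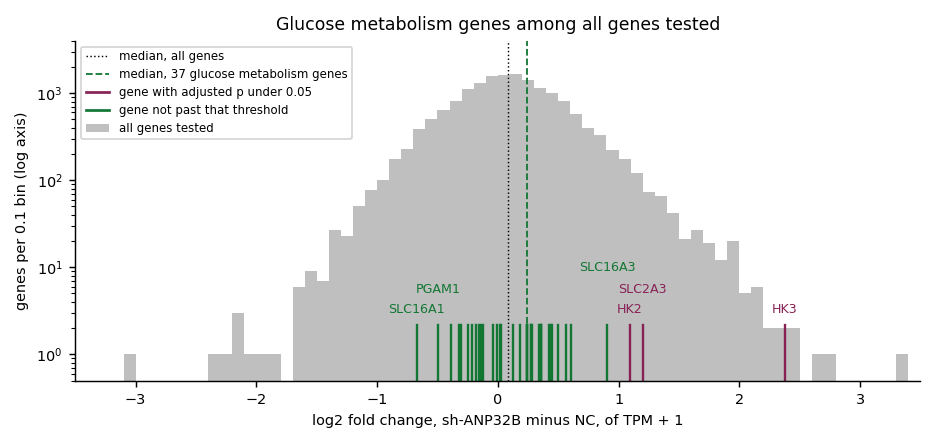
Grey bars count all 16817 genes tested per 0.1 of log2 fold change on a log axis, leaving out 2 genes beyond the range drawn; ticks at the bottom mark the 37 members and vertical lines the medians. The member median of 0.24 lay to the right of 0.08 for all genes, and HK3 at 2.38 lay far from the other members.

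Difference between the sh-ANP32B replicates moved with many of these values. The transcripts of the members had a median GC content of 53.1%, above the 48.1% of all genes with a value. Across the 37 members, the log2 difference of sh-ANP32B replicate 2 minus replicate 1 had a Spearman rho of 0.801 with GC content. These points share their libraries, so the value describes 2 libraries and not the knockdown. The root mean square SD between replicates over the members was 0.124 for NC and 0.252 for sh-ANP32B on the log2 scale. HK2 and SLC2A3 differed little between those replicates (0.05 and -0.12), and HK3 differed by 0.46. HK3, HK2 and SLC2A3 kept log2 fold changes of 2.14, 1.07 and 1.26 without sh-ANP32B replicate 2, and 2.61, 1.12 and 1.14 without replicate 1. The count of called members was 10 without sh-ANP32B replicate 2, where 20.7% of all genes were called, and 24 without replicate 1, where 24.3% were, and both counts contain these 3 genes.

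**Figure D5:**
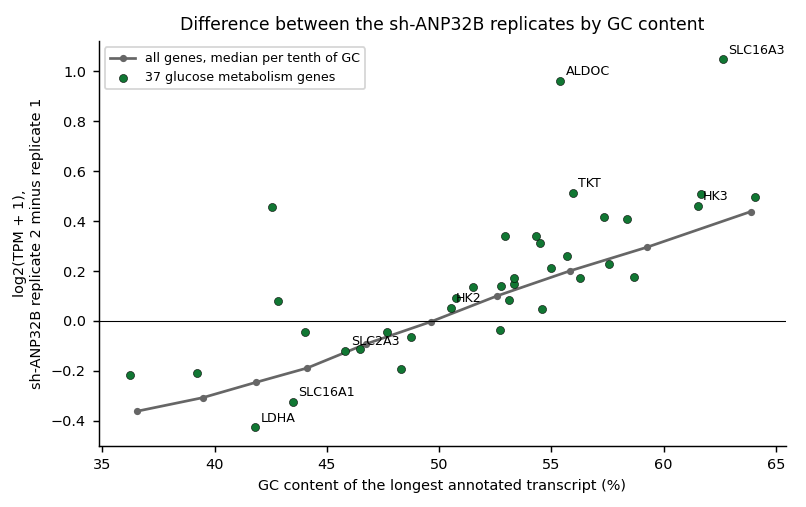
Each green point is 1 of the 37 genes, with the GC content of its longest annotated transcript in percent on the x axis and the log2(TPM + 1) difference of sh-ANP32B replicate 2 minus replicate 1 on the y axis; the grey line joins medians of all genes in 10 equal bins of GC content. The line ran from -0.36 to 0.44, and SLC16A3 (1.05) and ALDOC (0.96) lay highest.

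Markers of other myeloid stages were set beside HK3. Of 16 listed granulocyte and monocyte genes 10 were in the table, all 10 had a log2 fold change above 0 (57.9% of all genes did), and 3 were called as higher, LYZ and CSF3R among them (2.14% of all genes were). Their summed level was 1752 and 1809 TPM in NC against 2468 and 3438 TPM in sh-ANP32B. Most of that sum was LYZ (669 and 697 against 1360 and 1316 TPM) and CST3 (943 and 981 against 882 and 1845 TPM). The CST3 groups overlapped. Of the 8 blast markers found, 7 had a log2 fold change above 0. None was called in limma, and at an unadjusted p under 0.05 there were 4 higher and 1 lower (15% and 8.72% of all genes). MYC, which is known to bind many glycolysis genes, had 131 and 144 TPM in NC against 56.7 and 63.2 TPM in sh-ANP32B (-1.18, adjusted p = 0.0261 in limma). The part of either in the values of the members was not tested. Of the lymphoid markers, CD2 was between 1.57 and 9.48 TPM and was called as higher. CD79A did not exceed 2.17 TPM, with a listed 0 for sh-ANP32B replicate 1. The erythroid, megakaryocyte and stromal markers were not analysed here.

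The remaining genes of glucose metabolism came from a separate list of 74, of which 45 were in the table. None was called in limma, against 15 at an unadjusted p under 0.05 (11 higher and 4 lower, beside 15% and 8.72% of all genes), and their median log2 fold change was 0.15. ADPGK, which phosphorylates glucose from ADP, had 130.1 and 124 TPM in NC against 153 and 143 TPM in sh-ANP32B (0.22, adjusted p = 0.338 in limma). H6PD, which feeds the pentose phosphate reactions of the endoplasmic reticulum, had 27.2 and 27.9 TPM in NC against 39.8 and 51.9 TPM in sh-ANP32B (0.70, SE 0.176, adjusted p = 0.0787 in limma), and was called with GC correction. PRPS1, which turns ribose 5-phosphate into the precursor of nucleotides, was picked out after its values were seen, as the lower gene with the smallest adjusted p. It had 60.2 and 59.6 TPM in NC against 39.2 and 34.4 TPM in sh-ANP32B (-0.69, SE 0.146, adjusted p = 0.0565 in limma). LDHD, picked in the same way as the higher gene with the smallest adjusted p, lay near the filter in NC (1.08 and 0.925 TPM). In sh-ANP32B it had 3.80 and 6.02 TPM (1.54, SE 0.310, adjusted p = 0.0526 in limma).

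Several members have processed copies in the genome that can take or lend reads. In GENCODE v44, 15 of the 37 members have pseudogenes named after them, among them GAPDH with 65 and PGAM1 with 13. Copies of 5 members were in the table, and the summed level of any member's copies did not exceed 22.3 TPM. PGAM4, a coding retrocopy of PGAM1, lay between 2.60 and 6.33 TPM. Levels of these abundant members are therefore uncertain by amounts that TPM alone cannot show.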

How the data were processed

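RNA of 4 Kasumi-1 samples was sequenced, and per the labels and the methods of the study reads were aligned to hg38 with HISAT2 2.0.5. The deposited values are TPM, recognised from decimals and column sums between 997812 and 998314. The program behind the TPM values, its annotation and any filter are not given in the sources used here. Depth is unknown. The count test of the study could not be run on TPM, so limma 3.58.1 in R 4.3.3 was used.

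Gene symbols came from GENCODE v44 (16986 of 18567 identifiers matched). A gene entered if 2 or more samples reached 1 TPM. Values were taken to log2(TPM + 1) and the groups contrasted (sh-ANP32B minus NC) by limma with an abundance trend, two-sided, with Benjamini-Hochberg adjustment over all genes. The fit was also run on simulated data with equal, independent noise in both groups and no shift along GC content. These samples differ from that setting, so the simulation does not cover those features. Alternatives covered scaling, pseudocount, filters, variance model, GC correction, replicate block and leaving out each sample. Full values were given for the hexokinases, called members and the 6 largest log2 fold changes in each direction, and others by role. Members and lists were chosen with earlier results of these data known. Promoter sequences are from RefSeq. Scripts used Python 3.11.15, pandas 2.3.3 and matplotlib 3.10.9. Some genes of the marker and pathway lists are not reported here.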

Additional observations from a re-analysis of the deposited data

How the results depend on the processing

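HK3, HK2 and SLC2A3 kept their direction in all 16 alternatives. Of the 12 alternatives that keep all 4 samples, an adjusted p under 0.05 in limma was reached in 11. Limma without the abundance trend was the exception, where HK3, HK2 and ANP32B stood at 2.38, 1.09 and -3.04 with adjusted p of 0.0929, 0.114 and 0.0929. That fit called 0 of all genes, 0 members and 0 other pathway genes, against 3701, 7 and 10 at an unadjusted p under 0.05. The 559 genes, 3 members and 0 other pathway genes called became 2273, 8 and 7 with GC correction, 1473, 5 and 4 with the replicate block, and 1384, 5 and 5 with the replicate block with GC correction. The block added SLC16A1 and SLC16A3 to the members called, and the block with GC correction added PGAM1 and SLC16A1. Other pathway genes called were 1 after median-of-ratios scaling, 1 after quantile normalization and 2 when every sample had to reach 1 TPM. The member median of 0.24 was 0.15 after median-of-ratios scaling, 0.15 with GC correction and 0.15 with the block and GC correction.

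Without an NC replicate, the variance of each gene came from the abundance trend alone, so the gene's own spread did not enter. Each of the fits without 1 replicate has a lone sample on that side, assumed to vary like the other group. Over those 4 fits the calls ranged from 273 to 4079 genes, from 3 to 24 members and from 0 to 16 other pathway genes. Under the study's criterion they ranged from 1884 to 3953 genes, against 3130, and from 4 to 15 members, against 7. The member median ranged from 0.13 to 0.32, the HK3 share difference from 2.86 to 4.12 percentage points, and the log2 fold changes from -3.20 to -2.88 for ANP32B, from 0.011 to 0.35 for HK1, from 1.07 to 1.12 for HK2 and from 2.14 to 2.61 for HK3. The criterion counts over all genes under these settings were added after the data were seen. Deviations of samples with the same number had a Pearson r of -0.0925 across genes, so the replicate block rests on a shared number only. It leaves 1 residual degree of freedom, and without GC correction it also took the variance of each gene from the abundance trend alone. The cause of the shifts was not tested. TPM holds no depth, and 2 samples per group limit every p-value here.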
